A study of Homo sapiens with 7 samples.

Results

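Super-enhancers (SEs) linked to long non-coding RNA (lncRNA) genes were examined in HepG2, a cell line from a human liver cancer, with and without endoplasmic reticulum stress (ERS). The members were the listed SEs whose nearest gene, as deposited, had a name that starts with LINC, or that contains -AS or -IT followed by a digit. The names CREB3L2-AS1 and STEAP1B-AS1 were left out. By this rule 837 of 7472 listed SEs were members, linked to 211 of 2002 genes. They fell into 226 of the 1784 regions obtained by merging the 6 lists wherever SEs shared at least 1 bp. The study asked how ERS changes SEs in liver cancer cells, by chromatin immunoprecipitation and sequencing (ChIP-seq) of histone H3 acetylated at lysine 27 (H3K27ac), a mark of active enhancers and promoters. It compared 3 libraries of cells given the solvent DMSO with 3 libraries of cells given tunicamycin (TM), which blocks N-linked glycosylation of proteins and so causes ERS. All 6 libraries came from this 1 line, and neither the dose and duration of TM nor separate cultures are given in the labels.

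An SE is a long stretch of stitched H3K27ac peaks with a far higher summed signal than an ordinary enhancer. SEs often lie beside genes that define a cell type, and lncRNAs are commonly transcribed from or near them. Among the names used here, LINC marks a long intergenic non-coding RNA, AS a transcript on the strand opposite the coding gene it is named for, and IT a transcript from within an intron of that gene. When unfolded proteins build up in the endoplasmic reticulum, the unfolded protein response lowers general translation and raises transcription of stress genes through ATF4, XBP1 and ATF6. A link to the nearest gene is a matter of distance, and neither transcription of the lncRNA nor an effect of the SE on it was measured.

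Promoter windows were read for 23 lncRNA genes at regions that passed a test or were listed in 1 group only, and where every lncRNA-linked SE covered its linked start. Of these, 6 are shown to illustrate the motif matches and were picked after the matches were known, while 6 of the 23 held no match. These sequences are RefSeq GRCh38.p14, from 250 bases before to 50 bases after the gene's start, written 5′ to 3′ on the gene's strand, and the transcript that the lists linked may start elsewhere. Capitals mark matches, on either strand, to the AP-1 motif TGANTCA, the ATF4 composite motif TGATGCAA, CCAAT or CCACG. A match to CCAAT on the other strand reads ATTGG, and one to CCACG reads CGTGG.
LURAP1L-AS1, chr9:12814340-12814639, minus strand: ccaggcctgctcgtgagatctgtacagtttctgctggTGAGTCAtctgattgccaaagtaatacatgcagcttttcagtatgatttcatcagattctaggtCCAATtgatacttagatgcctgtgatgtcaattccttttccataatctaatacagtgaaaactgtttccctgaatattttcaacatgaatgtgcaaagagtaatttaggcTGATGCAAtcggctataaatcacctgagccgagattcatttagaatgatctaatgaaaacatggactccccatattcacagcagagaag
LINC00474, chr9:115925158-115925457, minus strand: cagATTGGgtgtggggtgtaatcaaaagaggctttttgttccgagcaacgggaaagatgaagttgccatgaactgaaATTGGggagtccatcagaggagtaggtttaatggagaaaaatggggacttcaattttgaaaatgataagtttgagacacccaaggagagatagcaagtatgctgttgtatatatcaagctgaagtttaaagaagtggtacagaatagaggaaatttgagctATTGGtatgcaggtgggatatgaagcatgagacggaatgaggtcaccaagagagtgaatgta
LINC01010, chr6:134437466-134437765, plus strand: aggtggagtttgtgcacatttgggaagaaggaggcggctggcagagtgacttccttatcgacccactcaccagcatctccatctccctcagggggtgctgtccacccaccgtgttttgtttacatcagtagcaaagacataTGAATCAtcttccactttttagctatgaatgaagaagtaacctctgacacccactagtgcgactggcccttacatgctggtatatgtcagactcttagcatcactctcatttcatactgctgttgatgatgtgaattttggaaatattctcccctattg
LINC01271, chr20:50321293-50321592, minus strand: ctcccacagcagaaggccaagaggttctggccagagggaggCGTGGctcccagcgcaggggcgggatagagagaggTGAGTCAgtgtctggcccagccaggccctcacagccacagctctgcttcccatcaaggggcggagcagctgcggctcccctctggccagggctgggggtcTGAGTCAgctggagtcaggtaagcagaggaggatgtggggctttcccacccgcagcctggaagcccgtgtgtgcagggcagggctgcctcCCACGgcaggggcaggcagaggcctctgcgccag
LINC01882, chr18:12749373-12749672, minus strand: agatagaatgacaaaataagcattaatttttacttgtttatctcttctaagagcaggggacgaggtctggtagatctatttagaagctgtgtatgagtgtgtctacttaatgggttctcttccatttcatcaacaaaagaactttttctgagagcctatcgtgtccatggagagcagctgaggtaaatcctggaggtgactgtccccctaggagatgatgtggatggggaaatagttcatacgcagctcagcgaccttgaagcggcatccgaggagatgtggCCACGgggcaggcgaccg
EHD4-AS1, chr15:41921167-41921466, plus strand: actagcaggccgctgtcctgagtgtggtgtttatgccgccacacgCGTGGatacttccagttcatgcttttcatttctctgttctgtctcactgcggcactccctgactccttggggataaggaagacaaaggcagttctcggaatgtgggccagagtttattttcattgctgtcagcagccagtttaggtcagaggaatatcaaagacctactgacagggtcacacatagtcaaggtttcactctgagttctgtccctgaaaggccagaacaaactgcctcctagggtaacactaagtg
LURAP1L-AS1 held 1 AP-1 match, 1 ATF4 composite match and 1 CCAAT, and LINC00474 held 3 CCAAT matches. LINC01271 held 2 AP-1 and 2 CCACG matches, LINC01010 held 1 AP-1 match, and LINC01882 and EHD4-AS1 held 1 CCACG each. Among the 152 members with such a window, 11.2% held AP-1, against 7.71% of all 35116 promoters in the table, and 1.97% against 0.866% held the ATF4 composite. CCAAT was found in 28.3% of the members' windows and 34.6% of all, CCACG in 34.2% and 38.1%, and the cyclic AMP response element TGACGTCA in 1.32% and 1.85%. The whole ER stress response element, which overlaps both of these motifs as CCAAT, 9 bases and CCACG, was in 0 of the members' windows and 0.0769% of all. A match is a description of the letters and not of binding.

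Members made up a near-constant share of each list. There were 124, 139 and 133 lncRNA-linked SEs in DMSO 1 to 3 and 128, 169 and 144 in TM 1 to 3, which was between 10.8% and 11.5% of each list. TM 2 had the longest list, and the groups overlapped (exact permutation test, two-sided, p = 0.4). The SEs themselves were shorter in TM. Their median length was 61.8, 50.3 and 62.2 kb in DMSO 1 to 3 and 37.6, 43.2 and 33.6 kb in TM 1 to 3, or 58.1 ± 6.74 kb against 38.2 ± 4.84 kb (mean ± SD, n = 3 per group). All 3 TM values were below all 3 DMSO values, which gives the smallest p that 3 against 3 libraries allow (exact permutation test, two-sided, p = 0.1, adjusted p = 0.275 over 11 measures). The median density, which is the deposited signal per bp, was 0.684 ± 0.0810 in DMSO and 1.00 ± 0.184 in TM, and the number of stitched peaks per SE was 13.7 ± 1.53 and 7 ± 1 (n = 3 each). Neither measure overlapped between the groups (exact permutation p = 0.1, adjusted p = 0.275 for each). Together the members covered 9.55 ± 0.762 Mb in DMSO and 6.63 ± 1.20 Mb in TM (n = 3 each, exact permutation p = 0.1, adjusted p = 0.275). The SEs of all other genes shifted in the same way. Their median length was 59.3 ± 7.58 kb in DMSO and 41.1 ± 2.90 kb in TM, their median density 0.654 and 0.905, their stitched peaks 14.7 and 8 and their covered length 74.9 and 55.3 Mb (means, n = 3 each), so these shifts were shared by the whole lists. The median signal per member SE, a sum over its length, was 36995 ± 7637 in DMSO and 35041 ± 9585 in TM and overlapped (n = 3 each, exact permutation p = 1). In a bulk sample, acetylation lost from some cells and acetylation lowered in every cell cannot be told apart.

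Compared with the SEs of all other genes in the same library, lncRNA-linked SEs lay further from the linked start and more often between genes. The SE covered the linked transcription start site (TSS) for 52.6% of members and 67.0% of other SEs, as means over the 6 libraries, a difference of -14.4 percentage points that was negative in 6 of 6 libraries (exact sign-flip test, two-sided, p = 0.03125, adjusted p = 0.04375 over 7 measures). The midpoint was intergenic for 51.9% of members and 33.6% of other SEs, again in the same direction in 6 of 6 libraries, with the same p. The name rule takes in LINC genes, which by name lie between genes, so this share is not independent of the rule. It was not split by kind of member. The median distance from midpoint to TSS was 28.9 kb for members and 20.1 kb for the others, higher in 6 of 6 libraries with the same p. Density was slightly higher for members in 6 of 6 libraries (0.843 against 0.780), with the same p in the exact sign-flip test, and length did not pass the test (48.1 kb against 50.2 kb, lower in 5 of 6 libraries, p = 0.0625, adjusted p = 0.0729). A p of 0.03125 is the smallest that 6 libraries can give, and the 6 lists share many regions, so they are not 6 independent tests of these positions. Among the kinds of member, the TSS was covered by 53.3% of 463 SEs linked to 114 LINC genes, by 52.1% of 363 linked to 92 antisense genes and by 1 of 11 linked to 5 intronic transcripts.

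**Figure D1:**
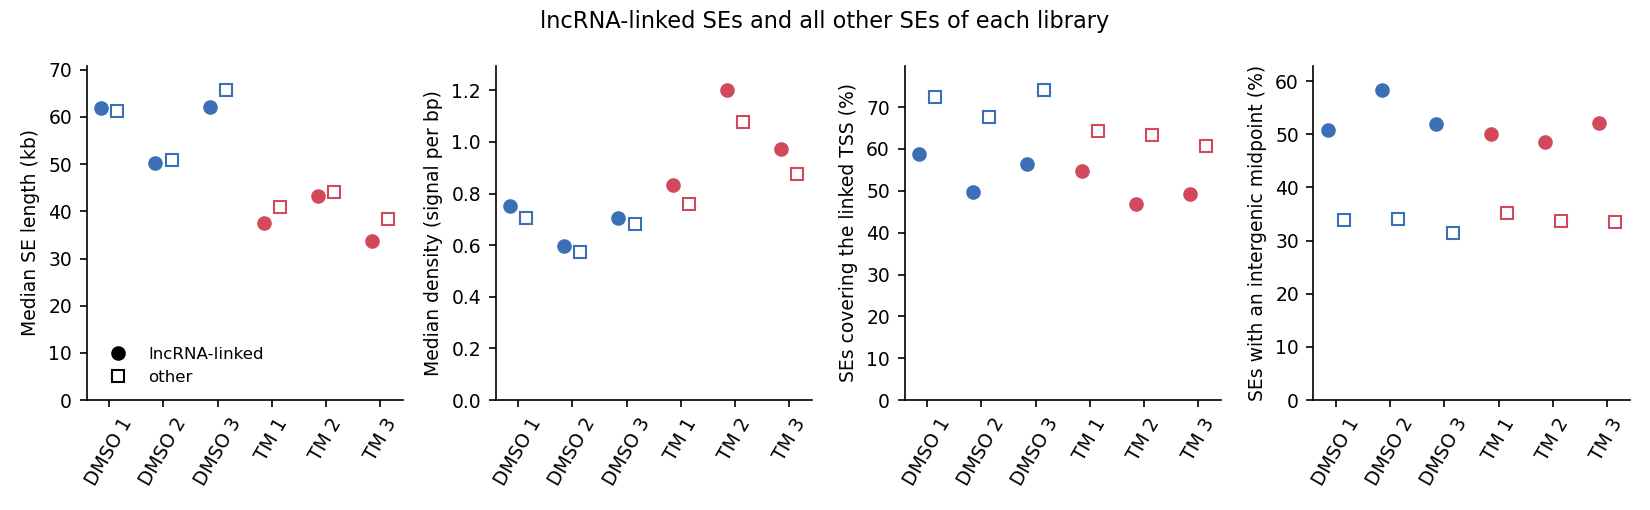
Median length in kb, median density in signal per bp, share of SEs covering the linked TSS in percent and share with an intergenic midpoint in percent, for each library. Filled circles are lncRNA-linked SEs, open squares are all other SEs, blue is DMSO and red is TM. Lengths of lncRNA-linked SEs sit between 50.3 and 62.2 kb in DMSO and between 33.6 and 43.2 kb in TM, and the share covering the TSS is below that of the other SEs in every library.

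The deposited lists have no values below a threshold. The lowest listed signal was 24793, 16747 and 24383 in DMSO 1 to 3 and 18282, 26265 and 18884 in TM 1 to 3, so DMSO 2 had the lowest threshold and TM 2 the highest. Read depth is unknown. On the deposited scale the median density of regions shared by all 6 libraries was 0.38 higher in TM than in DMSO (log2), the median total signal differed by -0.01 and the median length by -0.40. The label HepG2 was set against hepatocyte markers. An SE was linked to 4 of 28 such genes, CPS1 and ONECUT2 in 3 DMSO and 3 TM libraries, TM4SF4 in 3 and 0 and FOXA1 in 2 and 0, while ALB, AFP, APOA1 and HNF4A were linked in 0 libraries. Markers of other epithelia were linked for 3 of 6 genes (KRT7, KRT80 and TP63), fibroblast and stellate markers for 2 of 5 (LUM in 3 DMSO and 0 TM libraries, PDGFRB in 3 and 1), blood for 1 of 4 (PTPRC, in 0 and 2) and endothelium for 0 of 3. SE links are not expression values, and the part of other cells in the results below was not tested.

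Of the 211 lncRNA genes, 61 were linked to an SE in all 6 libraries (28.9%, beside 26.1% of all linked genes), 108 in 2 to 5 libraries and 42 in 1 library. DMSO libraries linked 156 of them and TM libraries 172. MYO16-AS1, antisense to the gene of an unconventional myosin and next to IRS2, which encodes an insulin receptor adaptor, had the most SEs, 15 over the 6 libraries. It was followed by LINC01600 with 12 and by TFAP2A-AS1 and LINC02101 with 11 each. Genes linked in 3 TM and 0 DMSO libraries numbered 15 (7.11%, beside 6.94% of all linked genes), and those linked in 3 DMSO and 0 TM libraries numbered 6 (2.84%, beside 4.70%). Leaving out a library relaxes the rule, so these counts can then only stay or rise. The number of TM-only genes was 30 without TM 1, and that of DMSO-only genes was 12 without DMSO 1, 10 without DMSO 2 and 11 without TM 2. Only 5 TM-only genes were left, and 8 DMSO-only genes, when every list was held to the highest of the 6 thresholds. None of these alternatives was counted over all linked genes.

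**Figure D2:**
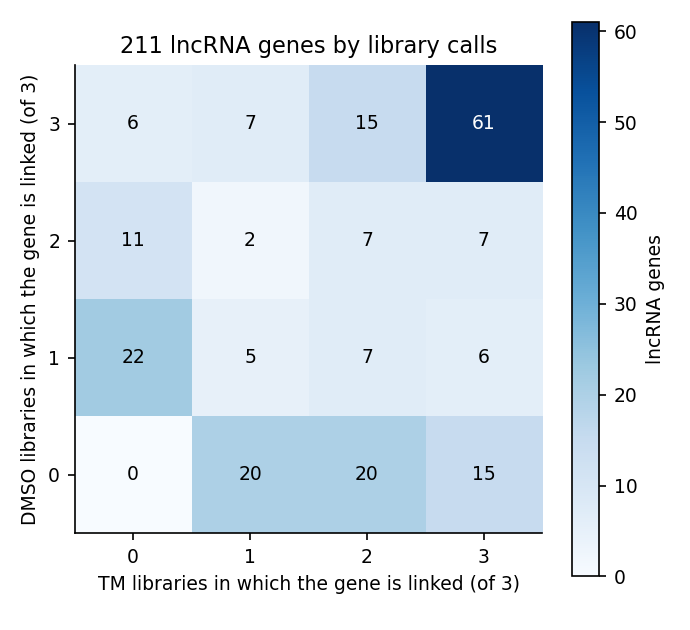
Number of lncRNA genes by the number of DMSO libraries (vertical axis, 0 to 3) and TM libraries (horizontal axis, 0 to 3) in which an SE was linked to them. The corner for 3 and 3 libraries holds 61 genes, that for 0 DMSO and 3 TM libraries holds 15 and that for 3 DMSO and 0 TM libraries holds 6.

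By region rather than by gene, 99 of 226 lncRNA regions were called in all 6 libraries (43.8%, beside 37.6% of all merged regions), 14 in TM only (6.19%, beside 7.57%) and 4 in DMSO only (1.77%, beside 5.44%). The remaining 109 were called in other combinations, 32 of the 226 in a single library. The members' share of TM-only regions was thus near that of all regions. Coordinates are given as deposited. The sources do not say which build they follow, and the linked starts seldom lay at GRCh38 gene ends.

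Regions listed in TM alone were short. Their median length was 29.5 kb, against 61.1 kb for the lncRNA regions called in all 6 libraries, and the regions of other genes were much alike at 29.5 and 59.7 kb. LINC01450 lies next to INHBA, the gene of the activin A subunit, and its region at chr7:41018940-41052519 had a signal of 28793, 41260.1 and 29018 in TM 1, TM 2 and TM 3. KIZ-AS1 is antisense to the gene of a centrosomal protein, and its region at chr20:21134603-21184592 had a signal of 25076, 48304 and 34015 in TM 1, TM 2 and TM 3. LINC01488 lies between MYEOV and CCND1, the gene of cyclin D1, and its region at chr11:69232432-69260256 had a signal of 25268, 31106 and 24866 in TM 1, TM 2 and TM 3. These 3 were the TM-only regions that stayed above every DMSO threshold in every TM library. After the libraries were put on 1 scale by their median density, 0 of the 14 did so, and by their median total signal 10 did. INHBA itself was linked in 3 DMSO and 0 TM libraries, and CCND1 and MYEOV in 0.

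Each of the other TM-only regions was below the threshold of DMSO 1 or DMSO 3 in at least 1 TM library, and all were above that of DMSO 2. KCNQ5-IT1 comes from an intron of a potassium channel gene, and its region at chr6:73352914-73386024 had a signal of 22628, 52932 and 32879.6 in TM 1, TM 2 and TM 3. At SRGAP2-AS1, chr1:121136366-121166664, the signal was 19875, 48993 and 36119.7 in TM 1, TM 2 and TM 3, with lengths of 13.7, 9.24 and 27.6 kb. SRGAP2 has near-identical copies in the human genome, so reads there could be shared between copies. EHD4-AS1 is antisense to the gene of an endocytic recycling protein, and its region at chr15:42198786-42265680 had a signal of 29652, 38731 and 22148 in TM 1, TM 2 and TM 3. At LINC01882, between PSMG2, which encodes a proteasome assembly chaperone, and PTPN2, which encodes a tyrosine phosphatase, the signal on chr18:12727290-12758345 was 18427, 30328 and 24248 in TM 1, TM 2 and TM 3. EHD4-AS1 and LINC01882 had their TSS inside the SE in 3 of 3 TM libraries, and their promoter windows are among those shown above.

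The region of UGDH-AS1 and UGDH, the enzyme that makes UDP-glucuronate, at chr4:39499527-39552512, had a signal of 19337, 35609 and 24806 in TM 1, TM 2 and TM 3 and was linked to UGDH-AS1 in 2 of these libraries and to UGDH in 1. At TMPO-AS1 and TMPO, which encodes a protein of the nuclear lamina, the signal on chr12:98866942-98935547 was 20941, 37299 and 30337 in TM 1, TM 2 and TM 3. Both are antisense genes at the start of their partner, so the same SE can be linked to either. The remaining regions were those of DISC1-IT1, LINC01822, LINC01948 (between ANKRD55 and MAP3K1), C5orf66-AS1 (next to PITX1, a homeobox factor) and LINC01108 (between CD83 and JARID2, a cofactor of Polycomb complexes). Over all 14 the signal ran from 18427 to 52932. TM 2 was highest in 14 of 14 and TM 1 lowest in 9. Without TM 1 the count of TM-only regions was 27, but leaving out a library can only keep or raise it. Held to the highest library threshold, it was 3. Neither alternative was counted over all merged regions.

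The 4 DMSO-only regions were long, with a median length of 69.9 kb, beside 55.1 kb for the 93 DMSO-only regions of other genes. LINC01364 lies between LMO4, a LIM-domain transcription cofactor, and PKN2, a kinase, and its region at chr1:88246433-88477482 had a summed signal of 130370, 75899 and 121641 in DMSO 1, DMSO 2 and DMSO 3 over 185 ± 46.1 kb (SD, n = 3). LINC00211, now named PIRAT1, lies next to CDC42EP3, and its region at chr2:37988088-38037900 had a signal of 37830.1, 28210.2 and 39482 in DMSO 1, DMSO 2 and DMSO 3. At LINC01119, next to MCFD2, which takes part in transport of clotting factors from the endoplasmic reticulum to the Golgi, the region at chr2:47039107-47121482 had a signal of 41976, 33566 and 40186 in DMSO 1, DMSO 2 and DMSO 3. MCFD2 and CDC42EP3 were each linked to an SE of their own in all 6 libraries. RDH10-AS1 is antisense to a retinol dehydrogenase gene, and its region had a signal of 40154, 31608 and 40152 in DMSO 1, DMSO 2 and DMSO 3. DMSO 2, which has the lowest threshold, was lowest in 4 of 4, and all 4 regions were above every TM threshold in every DMSO library, on the deposited scale and after either scaling. The count was 11 without DMSO 1, 7 without DMSO 2 and 10 without TM 2, but leaving out a library can only keep or raise it. These alternatives were not counted over all merged regions.

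**Figure D3:**
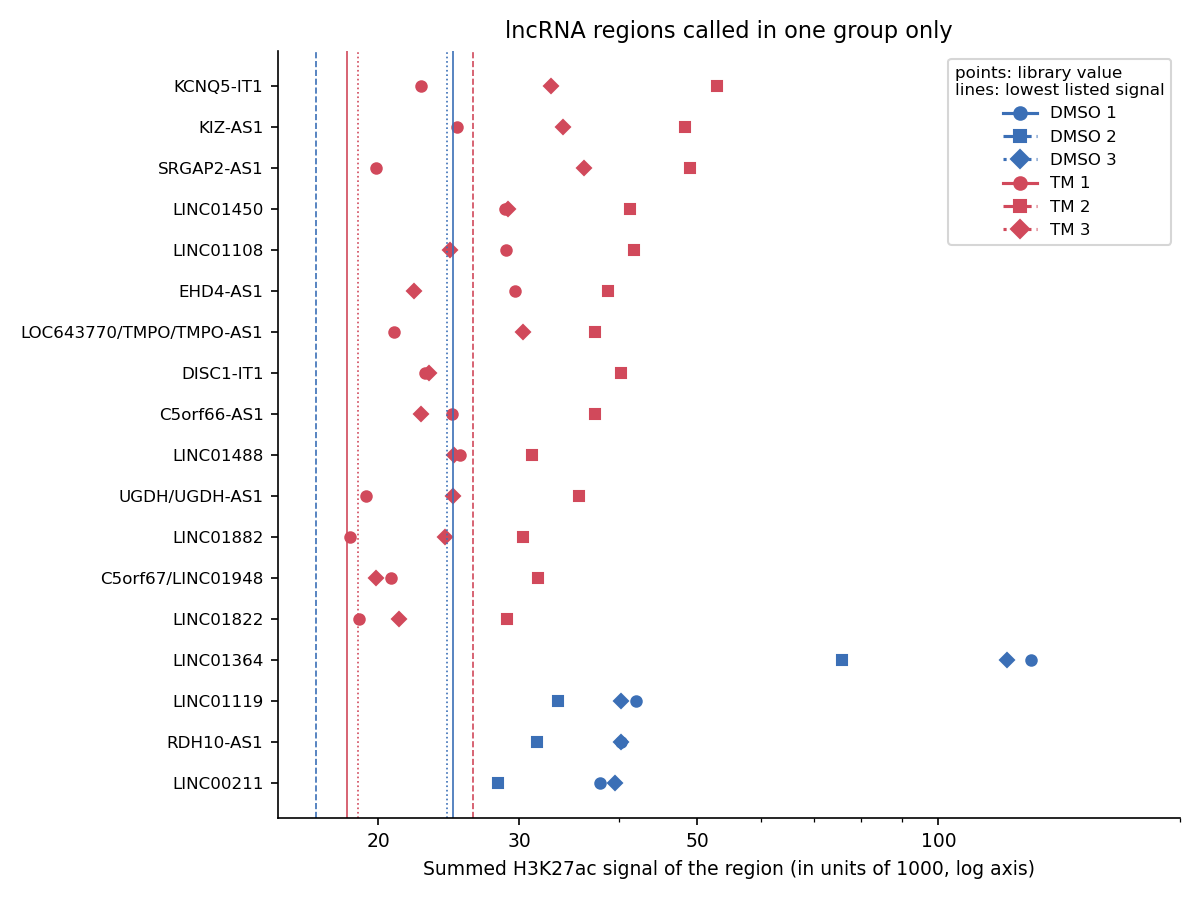
Summed H3K27ac signal, in units of 1000 on a log axis, of the 14 lncRNA regions called in TM only and the 4 called in DMSO only. Each point is 1 library (circle, square and diamond for replicates 1, 2 and 3, blue for DMSO and red for TM) and each vertical line is the lowest listed signal of a library. The TM-only regions lie between 18427 and 52932, close to the thresholds, and the DMSO-only regions lie between 28210 and 130370.

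Some genes were linked in 1 group only although their region was called in all 6 libraries. LINC-PINT, a p53-induced transcript, was linked in 3 TM and 0 DMSO libraries, by an SE over its start with a signal of 20036, 29049 and 26981 in TM 1 to 3, while the merged region of LINC-PINT and MKLN1 at chr7:130774953-130890744 had a signal of 132498, 98549 and 134098 in DMSO 1 to 3 and 99754, 151347 and 113468 in TM 1 to 3. The total did not pass the test (log2 change -0.0026, limma adjusted p = 0.984), but the region was shorter in TM, with lengths of 116, 115 and 115 kb in DMSO 1 to 3 and 86.5, 81.9 and 74.5 kb in TM 1 to 3. The region was 1 SE in each DMSO library, linked to MKLN1, and 2 SEs in each TM library, 1 of them over the start of LINC-PINT. The length call was lost without DMSO 1, DMSO 2, DMSO 3 or TM 3 (limma adjusted p = 0.0747, 0.0529, 0.0764 and 0.0643). LINC02111, next to BASP1, was linked in 3 TM and 0 DMSO libraries as well, in a merged region with 89435, 74872 and 91123 in DMSO 1 to 3 and 75348, 116409 and 54715 in TM 1 to 3 and no change past the test in total (adjusted p = 0.653). LINC01512, near VEGFA, the angiogenic growth factor, and PSG8-AS1, among the pregnancy-specific glycoproteins, were TM-only as genes within regions called throughout. Total signal was higher in TM at both regions, by 0.69 at LINC01512 and 0.26 at PSG8-AS1 (limma adjusted p = 0.0299 and 0.0353). These calls were kept in 3 and 2 of the 6 fits that leave out 1 library. In the other direction LINC01693, now NTRAS, and LINC01214, next to TSC22D2, were linked in 3 DMSO and 0 TM libraries, while their regions were also called in TM 2 under the name of the neighbour.

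The regions called in all 6 libraries allow a comparison of values. The region that spans ELL2, an elongation factor, PCSK1 and LINC01554 at chr5:95022494-95686977 had the highest signal, 408930 ± 71668 in DMSO and 301484 ± 111690 in TM (SD, n = 3 each). Next came LINC01589 with ATXN10, 264140 ± 48133 and 281825 ± 55593, and TFAP2A-AS1 with TFAP2A, an epithelial transcription factor, 198864 ± 37397 and 286630 ± 71770. The region of LINC00525 and LINC01447, beside TNS3, and that of LINC00899 and PRR34-AS1, between WNT7B and PPARA, had 219035 and 192422 as the mean of all 6 libraries. Density gave another order, led by short regions. NNT-AS1, between NNT and FGF10, had a density of 2.32 ± 0.479 in DMSO and 3.37 ± 1.25 in TM, and MYO16-AS1 1.86 ± 0.365 and 3.21 ± 0.890 (SD, n = 3 each). LINC02064, beside CDH6, LINC02101, beside PLK2, and the region of PRR34-AS1 followed, and none of these 5 passed the test for density.

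Each of the 99 shared regions was tested for density, total signal and length among all 670 shared regions, with limma and Benjamini-Hochberg adjusted p under 0.05. Density and total were centred on each library's median, so a change is relative to the typical shared region, while length was not centred. At least 1 measure passed for 48 lncRNA regions and none for 51, which was not counted over all 670 shared regions. For each measure alone the share of all shared regions is given. Density was higher in TM for 7 regions (7.07%, beside 6.72% of all shared regions) and lower for 8 (8.08%, beside 10.6%). Total signal was higher for 19 (19.2%, beside 18.7%) and lower for 17 (17.2%, beside 13.7%). The region was shorter for 19 (19.2%, beside 11.8%) and longer for 0 (beside 0.448%). For length in either direction, 35 of the 99 lncRNA regions had an unadjusted limma p under 0.05, beside 194 of all 670. The median log2 change over the 99 was 0.03 for density, 0.04 for total and -0.28 for length, against -0.03, 0.02 and -0.25 over all 670. For all 15 regions called on density and all 36 called on total, the groups did not overlap on the centred scale. These regions were chosen by the test on the same values, so the lack of overlap is not further evidence. It was not counted over all 670 shared regions.

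These counts depended on scale and on single libraries. Without centring, 25 regions were higher and 0 lower in density, and 2 higher and 6 lower in total. Over all 670 shared regions these counts were 133 and 1 in density and 7 and 22 in total. The 7 higher densities became 2 without DMSO 2, 13 without TM 1, 11 without TM 2 and 3 without TM 3, and the 8 lower became 1, 2 and 2 without DMSO 1, 2 or 3 and 3 without TM 3. Over all shared regions, the 45 higher densities became 23, 59, 61 and 27 in the same order. The 71 lower ones became 26, 35, 30 and 44. The 19 higher totals became 10 without DMSO 1 or DMSO 3 and 12 without TM 3, the 17 lower became 11 without DMSO 2, and the 19 shorter regions became 5, 12 and 7 without DMSO 1, 2 or 3 and 3 without TM 3. Over all shared regions, the 125 higher totals became 67, 63 and 64 in the same order and the 92 lower became 69. The 79 shorter ones became 23, 70, 24 and 25. Of the 36 calls on total signal 20 were kept whichever library was left out, of the 15 on density 2, and of the 19 on length 3.

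**Figure D4:**
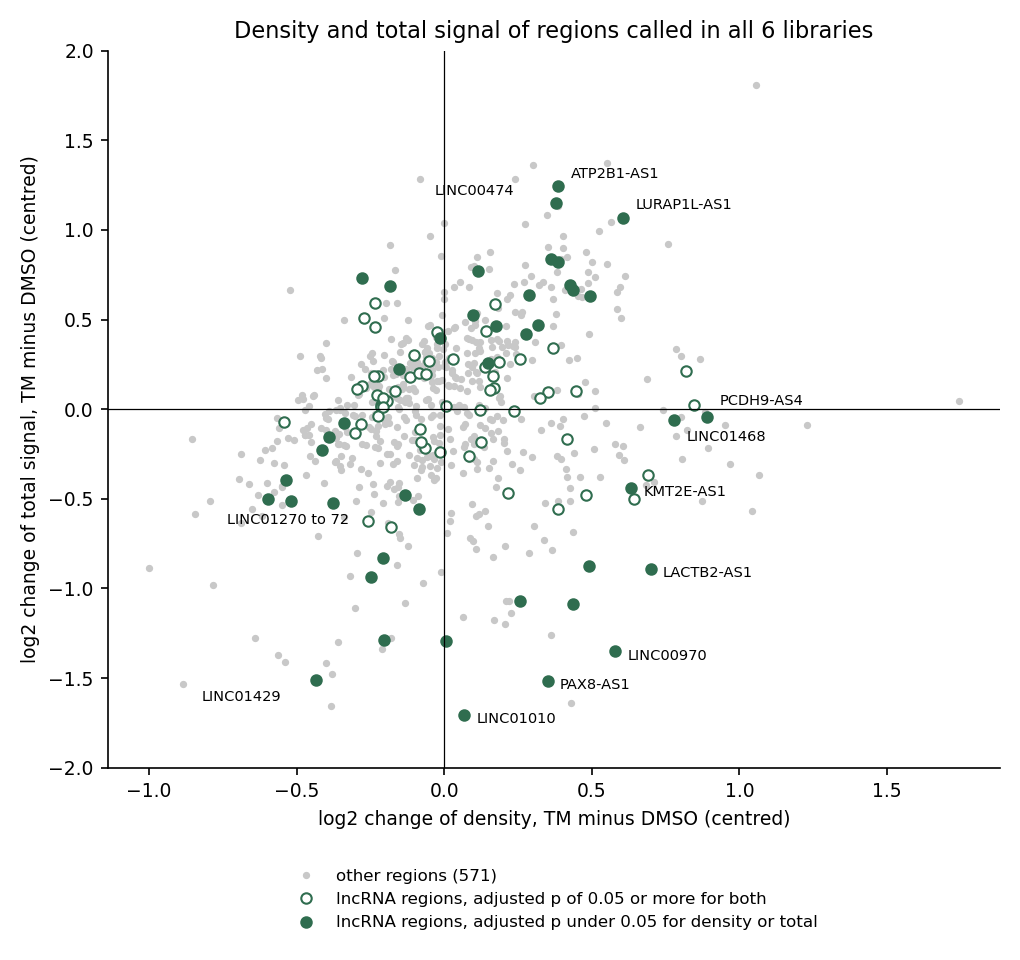
Log2 difference TM minus DMSO in density (horizontal axis) and in total signal (vertical axis), both centred on the library medians, for the 670 regions called in all 6 libraries. Grey dots are other regions, open green circles are lncRNA regions that passed neither test and filled green circles are lncRNA regions with an adjusted p under 0.05 for either measure. Total differences of lncRNA regions run from -1.70 to 1.25, and only 2 regions were called higher and 3 called lower on both axes.

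Gains of total signal were largest at an antisense and an intergenic gene beside matrix and calcium transport genes. ATP2B1-AS1 lies by ATP2B1, which encodes a plasma membrane calcium pump, and its region at chr12:90143120-90233089 had a signal of 33791, 26581 and 33900 in DMSO 1 to 3 and 61817, 110524 and 58435 in TM 1 to 3. The 3 TM values were higher than the 3 DMSO values also on the deposited scale, and the centred change was 1.25 (SE 0.12, adjusted p = 0.00123). No SE covered the TSS of ATP2B1-AS1, with a median distance of 84.9 kb. LINC00474 lies between TNC, the matrix protein tenascin-C, and PAPPA, a protease of the insulin-like growth factor system, and neither of these was linked in any library. Its region at chr9:118642081-118741557 had a signal of 34843, 23325 and 32099.7 in DMSO 1 to 3 and 46531, 102152 and 58770.1 in TM 1 to 3, with a centred change of 1.15 (SE 0.12, adjusted p = 0.00129). The SE covered the TSS of LINC00474 in 6 of 6 libraries. Both calls were kept whichever library was left out.

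LURAP1L-AS1, whose window above holds an AP-1 and an ATF4 composite match, gained on both scales. Its region at chr9:12771407-12829143 had a signal of 39589.8, 27939.7 and 41416 in DMSO 1 to 3 and 51536, 108659 and 74236 in TM 1 to 3. Relative to the library median the density was 1.13, 1.02 and 1.01 in DMSO 1 to 3 and 1.66, 1.66 and 1.50 in TM 1 to 3, and DMSO and TM did not overlap. The changes were 1.07 (SE 0.12, adjusted p = 0.00129) in total and 0.61 (SE 0.12, adjusted p = 0.0120) in density, while length did not pass (adjusted p = 0.803). The density call was lost without DMSO 2 or DMSO 3 (limma adjusted p = 0.0540 and 0.0631). LINC01483, next to MAP2K6, a kinase that activates p38, was the other region higher on both, with a signal of 29264, 23099.6 and 25626 in DMSO 1 to 3 and 32886, 57112 and 38273 in TM 1 to 3. Its total rose by 0.69 (SE 0.11, adjusted p = 0.00407) and its density by 0.43 (SE 0.13, adjusted p = 0.0496). The density call was lost without DMSO 1, DMSO 2, DMSO 3, TM 2 or TM 3 (limma adjusted p = 0.161, 0.164, 0.0516, 0.0837 and 0.0782). MAP2K6 was linked in 6 of 6 libraries.

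Further gains in total were found at DLGAP1-AS2 (0.84, next to TGIF1, a repressor in TGF-β signalling), at 2 regions of MYO16-AS1 (0.82 and 0.63), at NNT-AS1 (0.77) and at RBMS3-AS1 (0.73, within the gene of an RNA-binding protein). The shorter MYO16-AS1 region, at chr13:109796372-109814894, had a signal of 33587, 25799.9 and 35278 in DMSO 1 to 3 and 44055, 69883 and 53862 in TM 1 to 3, and its length did not pass (log2 change 0.05, adjusted p = 0.734). The other 11 gains lay between 0.22 and 0.69, among them LINC01483, HECTD2-AS1, LINC01122 and TFAP2A-AS1. Of 6 fits that leave out 1 library, the call at LINC01122 was kept in 3. Those at LINC01483, HECTD2-AS1 and TFAP2A-AS1 were kept in 6. The call at RBMS3-AS1 was lost without DMSO 1, DMSO 2 or DMSO 3 (limma adjusted p = 0.0518, 0.0502 and 0.0617). The call at the longer MYO16-AS1 region was lost without DMSO 1, DMSO 2, DMSO 3 or TM 3 (limma adjusted p = 0.0710, 0.0526, 0.0507 and 0.0774). None of the 19 regions with a gain in total was also shorter, which was not counted over all shared regions.

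Losses of total signal went with shortening, 12 of the 17 regions being shorter as well. LINC01010 lies next to SGK1, a kinase induced by serum and glucocorticoids, and the region at chr6:134556765-134875843 had a signal of 183310, 133318 and 185264 in DMSO 1 to 3 and 28289.5, 82120.4 and 55381 in TM 1 to 3. Its lengths were 319, 278 and 309 kb in DMSO 1 to 3 and 42.3, 90.2 and 80.5 kb in TM 1 to 3. The groups did not overlap on either, TM being lower, with changes of -1.70 (SE 0.20, adjusted p = 0.00168) in total and -2.16 (SE 0.31, adjusted p = 0.0180) in length. The median number of stitched peaks per SE there was 99 in DMSO and 12 in TM. Density did not pass (0.07, SE 0.093, adjusted p = 0.637). The length call was lost without DMSO 1, DMSO 3 or TM 3 (limma adjusted p = 0.0645, 0.0713 and 0.0536). The link also moved, since SGK1 was the linked gene in 1 DMSO and 3 TM libraries.

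PAX8-AS1 is antisense to PAX8, a developmental transcription factor, and its region at chr2:113956035-114128783 had a signal of 143027, 119152 and 147611 in DMSO 1 to 3 and 55091, 50278 and 38309 in TM 1 to 3. It went from 148 ± 17.5 kb to 33.1 ± 15.8 kb (SD, n = 3 each), with changes of -1.51 (SE 0.24, adjusted p = 0.00422) in total and -2.25 (SE 0.34, adjusted p = 0.0196) in length. The length call was lost without DMSO 1, DMSO 2, DMSO 3 or TM 3 (limma adjusted p = 0.0622, 0.0529, 0.0764 and 0.0658). PAX8-AS1 was linked in 6 of 6 libraries and PAX8 in 3 DMSO and 0 TM libraries. LINC01429 lies between SALL4 and ZFP64, both zinc finger genes, and its region at chr20:50412664-50622888 had a signal of 102169, 56963 and 77582 in DMSO 1 to 3 and 25790.4, 33198 and 22305 in TM 1 to 3. All 3 of its measures fell, total by 1.51 (adjusted p = 0.00148), length by 1.47 (adjusted p = 0.0133) and density by 0.43 (adjusted p = 0.0307) on the log2 scale. It was the one lncRNA region called both lower on density and shorter. The density call was lost without DMSO 1, DMSO 2, DMSO 3 or TM 3 (limma adjusted p = 0.0642, 0.0622, 0.120 and 0.0956). The length call was lost without TM 3 (limma adjusted p = 0.0545).

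At LINC00970 and ATP1B1, which encodes the β subunit of the sodium pump, the region at chr1:168875574-169120026 was 126, 191 and 243 kb long in DMSO 1 to 3 and 26.8, 61.4 and 28.6 kb in TM 1 to 3. Total fell (-1.35, SE 0.23, adjusted p = 0.00645) and density rose (0.58, SE 0.13, adjusted p = 0.0217). The density call was lost without DMSO 2, DMSO 3 or TM 3 (limma adjusted p = 0.0793, 0.0923 and 0.0522). The length call was lost without DMSO 1, DMSO 2, DMSO 3, TM 1 or TM 3 (limma adjusted p = 0.0622, 0.0787, 0.0951, 0.0805 and 0.0953). KMT2E-AS1 and LACTB2-AS1 were also lower in total and higher in density, which makes 3 regions called in opposite directions. The density call at KMT2E-AS1 was lost without DMSO 1, DMSO 2, TM 1 or TM 3 (limma adjusted p = 0.114, 0.0721, 0.0502 and 0.0547). The call on total at KMT2E-AS1 was lost without DMSO 1, DMSO 2, TM 1, TM 2 or TM 3 (limma adjusted p = 0.0893, 0.0678, 0.0928, 0.0585 and 0.0961). The density call at LACTB2-AS1 was lost without DMSO 1 (limma adjusted p = 0.0571). At LACTB2-AS1 and TRAM1, which encodes a membrane protein of the translocation site in the endoplasmic reticulum, the signal was 59390.3, 43048 and 57128 in DMSO 1 to 3 and 21587, 39709 and 26244 in TM 1 to 3 and the lengths 78.8, 60.1 and 63.8 kb in DMSO 1 to 3 and 15.8, 18.9 and 16.5 kb in TM 1 to 3. The length change there, -1.98 (SE 0.14, adjusted p = 0.00156), had the smallest adjusted p of the 19. The other large losses in total were LINC00687 with BTBD3, not far from the Notch ligand gene JAG1 (-1.29), LY86-AS1 with RREB1, a zinc finger factor downstream of Ras (-1.29), LINC01909 and LINC01910, by SOCS6 (-1.09), and DENND5B-AS1 (-1.07). Of 6 fits that leave out 1 library, the call at LINC01909 and LINC01910 was kept in 4 and that at DENND5B-AS1 in 3. A2M-AS1, with the protease inhibitor gene A2M, shortened by 1.75 on the log2 scale (adjusted p = 0.00431). The 17 losses in total ran from -1.70 to -0.44 and the 19 length changes from -2.32 to -0.37.

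Of the 7 regions higher in density 5 were also shorter. Density is total divided by length, so these calls are tied too, and their overlap was not counted over all shared regions. PCDH9-AS4, within a protocadherin gene, had the largest change in density, 0.89 (SE 0.21, adjusted p = 0.0219), with relative densities of 1.23, 1.24 and 1.14 in DMSO 1 to 3 and 1.65, 3.01 and 2.25 in TM 1 to 3, and its lengths were 89.8, 53.1 and 110 kb in DMSO 1 to 3 and 32.2, 32.6 and 32.0 kb in TM 1 to 3. LINC01468, now named LNCAROD, lies between DKK1, a secreted Wnt inhibitor, and MBL2, a liver lectin. Its relative density was 0.946, 1.10 and 0.925 in DMSO 1 to 3 and 1.46, 1.81 and 1.83 in TM 1 to 3, a change of 0.78 (SE 0.14, adjusted p = 0.00939), and its total did not pass (-0.06, SE 0.11, adjusted p = 0.683). Total did not pass at PCDH9-AS4 either (-0.04, SE 0.23, adjusted p = 0.891). The density call at PCDH9-AS4 was lost without DMSO 1, DMSO 2, DMSO 3 or TM 3 (limma adjusted p = 0.0642, 0.0549, 0.0668 and 0.0742).

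The lower densities passed the test only relative to the library median. Without centring 0 of the 8 passed, and 6 of them were still below 0, from -0.21 at LINC01270 to LINC01272 to -0.0087 at NDST1-AS1. At LINC01270, LINC01271 and LINC01272, next to CEBPB, a bZIP factor of the liver acute phase response, and PTPN1, a phosphatase of the insulin receptor, the region at chr20:48836850-48972089 had a signal of 84969, 73557 and 78118 in DMSO 1 to 3 and 52352, 69199 and 47032 in TM 1 to 3. Its relative density was 0.922, 0.938 and 1.07 in DMSO 1 to 3 and 0.727, 0.554 and 0.663 in TM 1 to 3, and the change was -0.60 (SE 0.12, adjusted p = 0.0138) in density and -0.50 (SE 0.16, adjusted p = 0.0488) in total. The linked gene was LINC01270 in 4 libraries and LINC01271 and LINC01272 in 1 each, always with the TSS inside the SE. PTPN1 was linked in 3 DMSO and 0 TM libraries and CEBPB in 0. The call on total was lost without DMSO 1, DMSO 2, DMSO 3, TM 2 or TM 3 (limma adjusted p = 0.111, 0.129, 0.0713, 0.101 and 0.156). This density call and that at LINC01468 were the 2 kept whichever library was left out.

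The other lower densities were at a separate region of LY86-AS1 without RREB1 (-0.54), MYLK-AS2 (-0.52, within the myosin light chain kinase gene), EXOC3-AS1 with AHRR, the repressor of the aryl hydrocarbon receptor (-0.42), NDST1-AS1 (-0.39, by a heparan sulfate enzyme), LINC00111 (-0.38, between TMPRSS2 and RIPK4), LINC01429 and MBNL1-AS1 (-0.34, by a splicing factor gene). On the deposited scale the density of LINC00111 was 0.599 ± 0.0737 in DMSO and 0.599 ± 0.0439 in TM (SD, n = 3 each), and that of MBNL1-AS1 0.682 ± 0.0565 and 0.712 ± 0.160. Both changes had the opposite sign without centring (0.0048 and 0.04). Each of these 7 density calls was kept in at most 3 of the 6 fits that leave out 1 library. Only MYLK-AS2, LINC01429 and the LINC01270 to LINC01272 region were lower in total as well. The call on total at MYLK-AS2 was kept in 2 of the 6 fits.

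**Figure D5:**
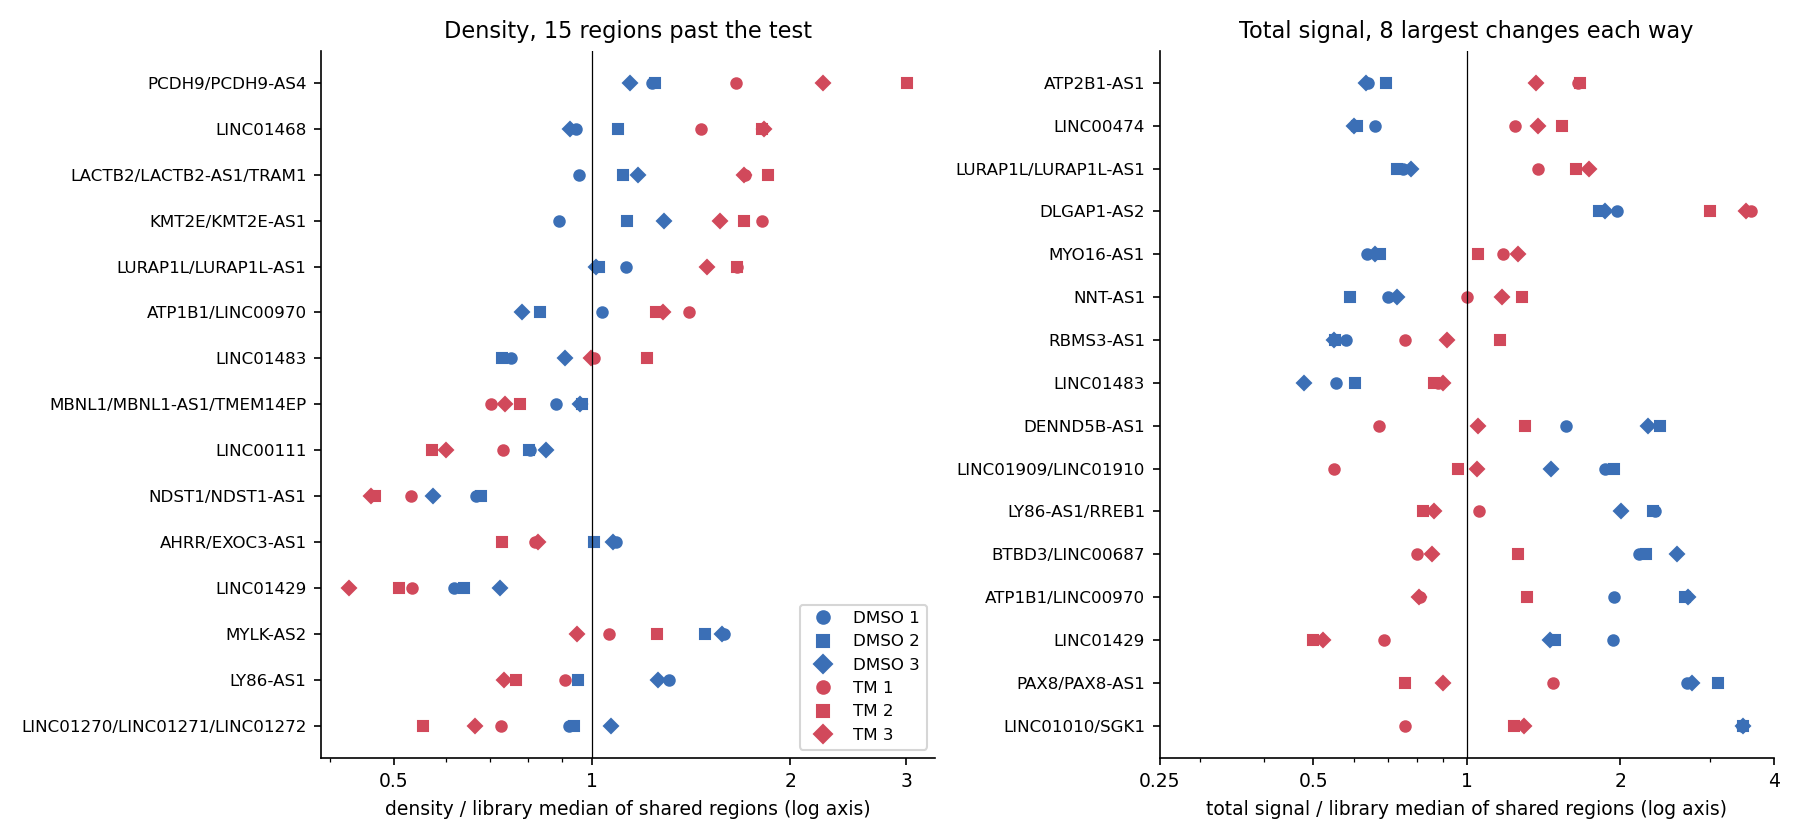
Left, density relative to the library median for the 15 lncRNA regions past the test for density, and right, total signal relative to the library median for the 8 largest gains and 8 largest losses past the test for total, both on log axes. Each point is 1 library (circle, square and diamond for replicates 1, 2 and 3, blue DMSO and red TM). The groups do not overlap for any of these regions, which were chosen by the test on the same values. Relative totals at LINC01010 with SGK1 lie between 3.47 and 3.49 in DMSO and between 0.757 and 1.30 in TM.

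The coding genes beside the members were taken from the RefSeq gene order, in which 210 of 211 members were found. Of these, 88 overlap a coding gene, and 475 coding genes overlap or flank a member. The members LINC00961, now SPAAR, and MMP24-AS1, now MMP24OS, are themselves typed there as protein coding. An SE was linked to 137 of the 475, in all 6 libraries for 26, in 3 TM and 0 DMSO libraries for 8 and in 3 DMSO and 0 TM libraries for 10. The base of these counts is the 137 linked neighbours, as the rest of the 475 were linked in no library. Of all 2002 linked genes, 523 (26.1%) were linked in all 6 libraries, 139 (6.94%) in TM only and 94 (4.70%) in DMSO only. The 8 were ATF3, a bZIP factor induced by stress, GADD45A, a growth arrest and DNA damage gene, CREB5, IER3, IRF2BP2, CPEB4, RBMS3 and HERC1. The 10 were INHBA, PTPN1, LIPC (hepatic lipase), PAX8, TM4SF4, PSG1, SPECC1L, CDKAL1, MAP3K20 and FNDC3B. Of the 27 ERS genes considered, 7 were linked to an SE, and 2 of these, ATF3 and GADD45A, were neighbours of a member.

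LINC01740 lies beside ATF3, and its region at chr1:212631249-212696805 was listed in DMSO 2 with a signal of 20426 and in TM 1 to 3 with 67919, 71435 and 64123. It was under the threshold in DMSO 1 and DMSO 3, so it entered no test. All 3 TM values were higher than that of DMSO 2, and no SE covered the TSS of LINC01740, with a median distance of 52.5 kb. GNG12-AS1 lies beside GADD45A, and their merged region at chr1:68143707-68308397 had a signal of 90729, 61838 and 83858 in DMSO 1 to 3 and 96197, 122907 and 68539 in TM 1 to 3. The groups overlapped and no measure passed (total 0.27, SE 0.17, adjusted p = 0.266). The SEs there were linked to GNG12-AS1 in 3 DMSO and 2 TM libraries, and to GADD45A in 0 DMSO and 3 TM libraries. LINC00243, next to IER3, an immediate early gene, lay in a region that was shorter in TM (-0.37, SE 0.083, adjusted p = 0.0491), and LINC01484 and LINC01485, next to CPEB4, a translation regulator, in one that fell in total (-0.93, SE 0.21, adjusted p = 0.0168). At the immediate early genes, LINC00392 shared its region with KLF5, a Krüppel-like factor, which fell in total (-0.56, SE 0.085, adjusted p = 0.00401), and BRE-AS1 lies next to FOSL2, an AP-1 subunit linked in 3 DMSO and 2 TM libraries. The length call at LINC00243 was lost without DMSO 1, DMSO 2, DMSO 3, TM 1 or TM 3 (limma adjusted p = 0.130, 0.0982, 0.132, 0.101 and 0.119). The call at LINC01484 and LINC01485 was lost without DMSO 2, DMSO 3 or TM 3 (limma adjusted p = 0.0593, 0.0531 and 0.0639).

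The name gives a coding partner for 97 members, and 40 of these had a partner that was itself linked to an SE. Both genes of a pair were linked in all 6 libraries for 2 pairs, THSD4-AS1 and THSD4-AS2 with THSD4. The lncRNA gene was linked in all 6 and the partner in fewer for 6 pairs, and the reverse held for 3, those of A2M-AS1, GMDS-AS1 and USP3-AS1. In 18 of 40 pairs the genes were never linked in the same library. RBMS3-AS1 was linked in 3 DMSO and 3 TM libraries and RBMS3 in 0 and 3, while LIPC-AS1 was linked in 2 and 1 and LIPC in 3 and 0. MAP3K20-AS1 was linked in 0 DMSO libraries and 1 TM library and MAP3K20 in 3 and 0, and BHLHE40-AS1 was linked in 1 and 3 and BHLHE40, a circadian repressor, in 1 and 0. Of the 226 lncRNA regions, 68 also held an SE linked to a gene outside the name rule, 45 of them among the 99 called in all 6 libraries. At such regions a change of the linked gene need not be a change of the region.

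Among 60 names of lncRNA genes with a described role in cancer or liver, whether or not they fit the name rule, 14 were linked to an SE and 5 of these are members. The list holds LINC00152 and LINC00162 beside CYTOR and PICSAR, which are their current names. LINC00963 was linked in 6 of 6 libraries with the TSS inside, and its SEs had a signal of 58876, 42748 and 52658 in DMSO 1 to 3 and 55366, 64640.1 and 54776 in TM 1 to 3. LINC01554 was linked in 2 DMSO and 3 TM libraries, and its merged region fell in total (-0.48, SE 0.068, adjusted p = 0.00323) and in length (-0.74, adjusted p = 0.0196). The length call was lost without DMSO 1, DMSO 3 or TM 3 (limma adjusted p = 0.0687, 0.0764 and 0.0693). LINC-PINT and GNG12-AS1 are described above, and LINC00473, a transcript known to respond to cyclic AMP, was linked in DMSO 2 and TM 1 only, with a signal of 18099 and 18694, close to the thresholds of those libraries. Of the listed genes outside the name rule, CYTOR and MIR31HG were linked in 6 of 6 libraries. CCAT1 was linked in 0 DMSO and 3 TM libraries and MALAT1, an abundant nuclear RNA, in 2 and 3. MIR100HG was linked in 2 and 2, NEAT1 in 0 and 1, and HOTAIR, LUCAT1 and PICSAR in 1 and 0 each. The liver-enriched members of the list, such as HULC, LINC01093 and LINC02499, were linked in 0 libraries.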

How the data were processed

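H3K27ac ChIP-seq was done on 3 DMSO and 3 TM libraries of HepG2 cells, and the input sample was not analysed here. The authors deposited 1 list of SEs per library, made from stitched MACS peaks and annotated with the nearest gene in the HOMER layout. CASAVA 1.4 and both hg38 and mm9 are named in the submitters' processing notes, without saying what each served for, and the aligner is not given in the sources used here. The deposited signal of each SE was a density in whole steps of 0.0001 per bp times its length, for 100% of SEs. The study's ranking plot of SEs is described as using signals normalized to input, but whether the listed columns were treated so, and how they were scaled, is not stated. Read depth is unknown, so only the 3 libraries per group give an error. The labels do not say that they were separate cultures, and p-values then measure only the spread between these libraries, which may be technical.

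SEs sharing at least 1 bp were merged over the 6 lists. Signal and length were summed per region and library, and density was their ratio. For the regions called in all 6 libraries, log2 values were fitted with limma 3.58.1 in R 4.3.3 (moderated test with an intensity trend, DMSO against TM, no covariate), with density and total centred on the library median. P-values were adjusted by the Benjamini-Hochberg method over all such regions, and a call was an adjusted p under 0.05. The code was tested on simulated data. Summaries over libraries used exact permutation tests, for which 0.1 is the smallest p of 3 against 3. Python 3.11.15, pandas 2.3.3, numpy 2.4.6 and matplotlib 3.10.9 were used.

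Regions were named in the text if they or their gene were called in 1 group only, if they were among the 8 largest changes past the test in a direction and measure, if they were among the 5 highest in signal or density, or if a coding neighbour was on one of the gene lists used. The members, the lists and the tests were chosen with earlier results of these data known. Alternatives were another overlap, a common threshold, other centring, the strongest SE per region, no trend, a replicate block, each library left out and current gene symbols. A linked start lay within 5 kb of a GRCh38 gene end for 11.4% of 7434 SEs, so coordinates were printed as deposited, and RefSeq GRCh38.p14 served for names, gene order and promoter sequences.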

Additional observations from a re-analysis of the deposited data

How the results depend on the processing

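Counts of lncRNA regions and genes depended on the scale, on the threshold and on single libraries. Without centring, 25 regions were higher and 0 lower in density and 2 higher and 6 lower in total, and with centring on total signal 44 were higher and 0 lower in density. Over all 670 shared regions, 133 were higher and 1 lower in density without centring, and 243 and 2 with centring on total signal. Above the highest library threshold, 3 regions were higher in density, 10 shorter, and 7 higher and 10 lower in total, while 3 regions and 5 genes were TM-only and 6 regions DMSO-only. Over all 392 regions shared above that threshold, 20 were higher in density, 39 shorter, and 38 higher and 44 lower in total. Without the trend 5 regions were lower in density, and 61 over all 670 shared regions. With current symbols 4 genes were DMSO-only. Leaving out each library gave 2 to 13 regions higher and 1 to 10 lower in density, 10 to 23 higher and 11 to 23 lower in total, 3 to 24 shorter and 0 to 1 longer, 14 to 27 TM-only and 4 to 11 DMSO-only regions, and 15 to 30 TM-only and 7 to 12 DMSO-only genes. Over all shared regions it gave 22 to 61 higher and 26 to 84 lower in density and 63 to 139 and 53 to 114 in total. It also gave 23 to 128 shorter and 0 to 4 longer. The TM-only and DMSO-only counts can only stay or rise when a library is left out. Under these alternatives they were not counted over all merged regions or all linked genes.

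For libraries with the same number, correlations of their deviations were -0.008, -0.047 and -0.026 for density. They were -0.046, -0.211 and 0.007 for total. With 3 libraries per group these values cannot show whether libraries with the same number were prepared together. With the replicate block the counts were 8 higher and 6 lower in density, 14 and 14 in total, and 0 shorter. Over all 670 shared regions they were 46 and 49 in density, 75 and 60 in total, and 6 shorter. Of the 70 calls of single regions 39 held with it. Density changed sign at LINC00111 (0.0048 without centring, 0.013 centred on total) and MBNL1-AS1 (0.040 and 0.048 in the same order). The total of the PSG8-AS1 region became -0.33 with the strongest SE, and that of the LINC01512 region -0.12 with the strongest SE and -0.21 with the stricter overlap. The cause was not tested. Unlisted regions have no value below the threshold of their library, and read depth was not given.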

Other observations

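The lists carry older symbols, and many lncRNA genes appear there under LOC or open reading frame names. With symbols updated by gene identifier from RefSeq, the name rule took in 947 SEs, 243 genes and 256 merged regions, adding 46 regions and dropping 16. The values below belong to regions that the deposited names leave out, with log2 changes and adjusted p from the same limma fit.

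The largest gains among the added regions were beside a phosphatase and a keratin cluster. The region of RPL26L1-AS1, which also holds DUSP1, the phosphatase of MAP kinases induced by stress, had a signal of 165506, 133888 and 170867 in DMSO 1 to 3 and 280342, 304396 and 254238 in TM 1 to 3. Every TM value was above every DMSO value, with a change in total of 0.85 (SE 0.17, adjusted p = 0.0110) that was kept whichever library was left out. Its density rose by 0.42 (adjusted p = 0.0391), and this call was lost without DMSO 1, DMSO 2, DMSO 3, TM 1 or TM 3 (adjusted p = 0.114, 0.0981, 0.176, 0.0576 and 0.0653). LINC02874 shares its region with KRT7 and KRT80, keratins of simple and other epithelia, and had 136360, 104386 and 127370 in DMSO 1 to 3 and 212475, 265222 and 187824 in TM 1 to 3. Its total rose by 0.86 (SE 0.13, adjusted p = 0.00422), also in every set of libraries, and its density did not pass (-0.01, adjusted p = 0.953). LINC02694 rose by 0.66 in total (adjusted p = 0.0173) and 0.59 in density (adjusted p = 0.0231). Its total call was lost without DMSO 1, DMSO 2 or TM 3 (adjusted p = 0.0640, 0.0596 and 0.0652), and its density call without DMSO 1, DMSO 2 or DMSO 3 (adjusted p = 0.0616, 0.0622 and 0.109).

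RIPOR3-AS1, in a region with PARD6B, a cell polarity gene, fell by 0.62 in density (adjusted p = 0.00693) and by 0.60 in total (adjusted p = 0.00854) on the log2 scale, and both calls were kept whichever library was left out. LINC02398 had the highest mean signal of the added regions, 278373 over the 6 libraries, and no measure passed, the change in total being -0.06 (adjusted p = 0.516). Added regions called in 3 TM and 0 DMSO libraries were those of PRDX6-AS1, LINC02762, LINC02915, LINC02225, LINC02541 and LOXL2-AS1, with mean signals of 26279, 28967, 26813, 28556, 24745 and 24143, close to the thresholds as for the regions under deposited names. FOSL2-AS1, at the AP-1 gene FOSL2, was called in all 6 libraries and its total did not pass (-0.23, SE 0.21, adjusted p = 0.421).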
